A study of Rattus norvegicus with 50 samples.

Results

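The ligands, receptors and inhibin subunits of transforming growth factor beta (TGF-beta) were followed in the mammary gland of 50 female Sprague-Dawley rats. The set held 10 genes, namely Tgfb1, Tgfb2, Tgfb3, Tgfbr1, Tgfbr2, Tgfbr3, Inhba, Inhbb, Ltbp1 and Id3. They were chosen by name and role, with earlier results of these data known. On the arrays 9 of the 10 had a probeset that the annotation assigns to a single gene, out of 18166 such genes in all, and each of the 9 had 1 such probeset. Tgfbr2 was not analysed here. The gene expression of each rat was measured once, on a GeneChip Rat Gene 2.0 ST array, and values are RMA log2 signals, so that a difference of 1 is a doubling of signal.

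The 10 groups of 5 rats combined 5 treatments with 2 reproductive histories. Rats received olive oil (OIL, the control), diethyl phthalate (DEP, a plasticizer and solvent of personal care products), methyl paraben (MPB, a preservative), triclosan (TCS, an antimicrobial) or the mixture of these chemicals (MIX) between postnatal days 1 and 180. Until day 28 the treatment came through the milk of gavaged dams and afterwards by gavage, and all rats, parous and nulliparous, were sacrificed on day 181. Parous rats were mated on day 97 and their pups were weaned by then. All animals came from one outbred colony, no siblings shared a treatment group, and the estrous stage at sacrifice was random. Tissue was the whole caudal gland at position 5 of both sides, in which fewer cells of a type and less RNA per cell cannot be told apart.

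TGF-beta is secreted in a latent form that is bound to latent TGF-beta binding proteins and stored in the extracellular matrix. The released ligand brings together type I and type II receptor kinases, which phosphorylate Smad proteins, and these enter the nucleus and change transcription. In the mammary gland the pathway is known for restraining ductal growth and for promoting cell death during the involution that follows lactation. Activins and inhibins are dimers of related subunits that act through receptors of the same family.

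RNA was extracted with one of 2 kits, Promega in 26 rats and Zymo in 24. The batch label of each rat coincided with its kit, so a batch difference cannot be told apart from a kit difference. The kit was the widest difference in the data: at an adjusted p under 0.05, 78.6% of all genes had a kit difference, and 8 of the 9 members had one. The log2 difference of Zymo from Promega was -2.31 for Tgfbr3, -2.10 for Tgfb3, -1.59 for Tgfbr1 and 2.74 for Id3. Inhba differed by 0.04 (95% confidence interval -0.12 to 0.20). Each DEP group held 1 Promega and 4 Zymo rats, whereas each other group held 3 Promega and 2 Zymo rats. The kit was therefore a term of every fit, and the values called kit-adjusted were moved to the midpoint of the kits. Array medians lay between 6.70 and 6.91. As a check of the tissue, the mean signal of 12 luminal epithelial markers, called the luminal score, was between 8.57 and 10.7 in every rat.

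The ligands Tgfb2 and Tgfb3 were lower with DEP in parous rats. Both encode secreted ligands that bind the receptor complex, and Tgfb2 depends on the co-receptor betaglycan for high-affinity binding. They were the 2 of 9 members that passed at the cut-offs of the study, an adjusted p under 0.25 with a change of at least 1.5-fold, applied here to a single fit of all rats, where 5.26% of all genes passed (214 higher and 742 lower). Tgfb3 belongs to the DEP parous gene signature that the study chose on these same rats, so its fall is not independent evidence of direction.

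For Tgfb3 in parous rats, the deposited signals of the Promega controls were 12.39, 12.71 and 12.16, and the only Promega DEP rat had 11.03. With the Zymo kit the controls had 10.09 and 9.72, and the DEP rats had 8.82, 10.01, 8.51 and 8.61. Within each kit the DEP rats were at the low end, except that DEP_par_38 lay between the 2 Zymo controls. Kit-adjusted means were 10.0 ± 0.60 (SD, n = 5) with DEP and 11.2 ± 0.33 (SD, n = 5) with oil. The difference was -1.18 (SE 0.23, 95% confidence interval -1.65 to -0.71), a 2.26-fold fall with an adjusted p of 0.00228. After kit adjustment 4 of 5 DEP rats were below the lowest control, so the groups overlapped in 1 rat.

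For Tgfb2 in parous rats, the Promega controls had 9.67, 9.87 and 9.20 and the Promega DEP rat had 8.38. The Zymo controls had 8.47 and 9.14, against 8.01, 8.52, 7.35 and 8.04 in the DEP rats. Again 4 of 5 DEP rats were below the lowest control after kit adjustment, and all 5 were below the control median. The fall was 0.93 on the log2 scale, as a difference of -0.93 (SE 0.27, 95% confidence interval -1.46 to -0.39) and 1.90-fold, with an adjusted p of 0.0337.

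In nulliparous rats 1 of 9 members passed, where 1.84% of all genes did. Tgfb2 signals were 9.83, 10.02 and 9.51 in the Promega controls and 9.36 in the Promega DEP rat. With Zymo they were 9.25 and 9.25 in the controls and 8.26, 8.37, 8.87 and 8.17 with DEP. All 5 DEP rats were below the control median and 4 of 5 below the lowest control after kit adjustment. Tgfb2 fell by 0.68 on the log2 scale (SE 0.27, 1.61-fold), with an adjusted p of 0.231, close to the threshold. The call was lost without any of 7 of the 10 rats, including 3 DEP rats (DEP_null_27, DEP_null_28 and DEP_null_31), and the difference ranged from -0.78 to -0.61 over all 10 omissions.

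Tgfb3 did not pass in nulliparous rats. Its signals were 12.52, 12.44 and 12.13 in Promega controls against 11.85 in the DEP rat, and 9.93 and 9.57 in Zymo controls against 9.66, 9.68, 9.35 and 9.26. Kit-adjusted DEP values were all below the control median and 2 of 5 below the lowest control. The difference was -0.52 (95% confidence interval -0.99 to -0.05, adjusted p = 0.316). The limma test of whether the DEP difference itself depended on parity passed for 0% of all genes and for no member. For Tgfb3 the DEP difference in parous rats minus that in nulliparous rats was -0.66 (95% confidence interval -1.31 to -0.0075, SE 0.32). This was the only member with an unadjusted p under 0.05 there. The corresponding tests for MPB, TCS and MIX passed for 0 members and 0% of all genes, with 0 members at an unadjusted p under 0.05.

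**Figure D1:**
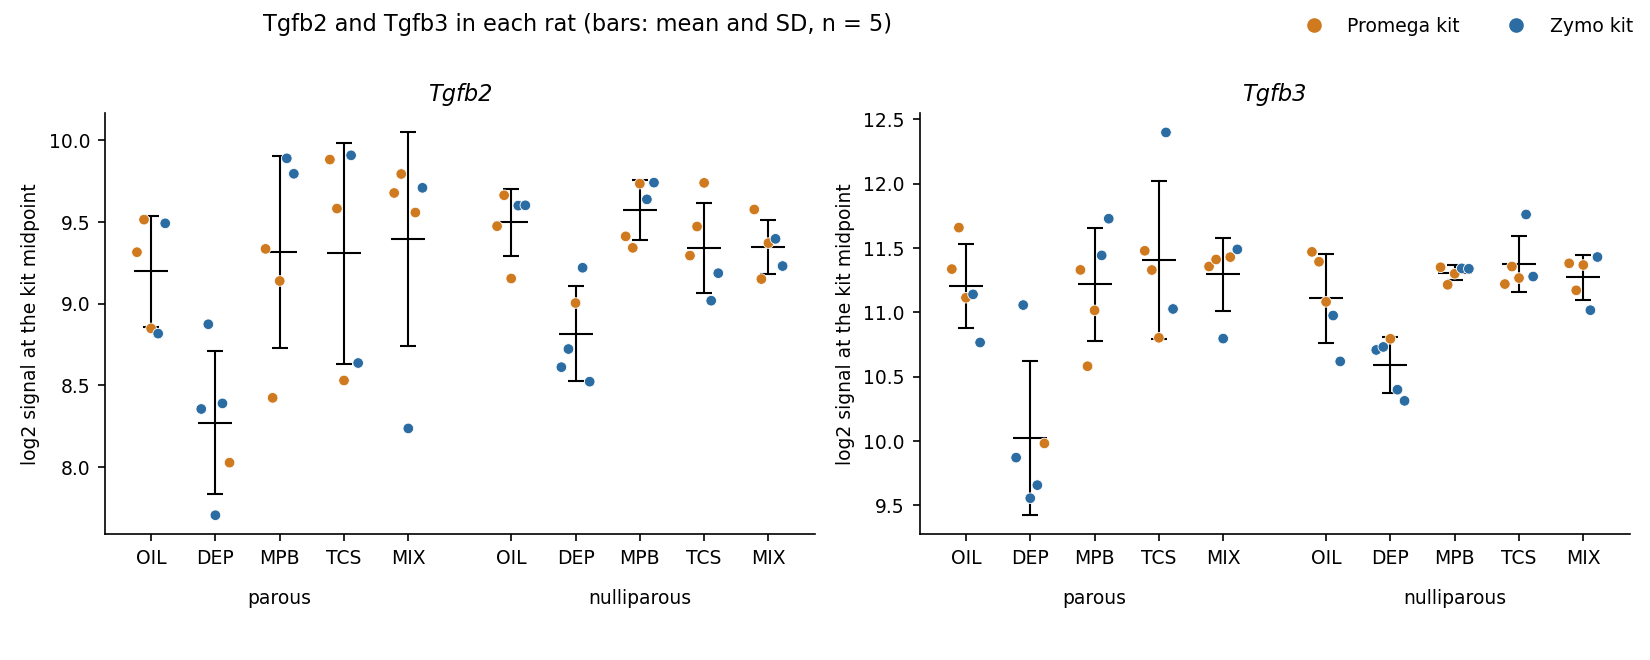
Kit-adjusted log2 signal of Tgfb2 and Tgfb3 in each rat, by treatment and parity, with points coloured by RNA kit and bars for the mean and SD of 5 rats. The 2 DEP groups have the lowest means for both genes, and in parous rats 1 DEP rat reaches 11.06 for Tgfb3.

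DEP was then set against the other chemicals directly. In parous rats Tgfb3 was lower with DEP than with MPB, TCS and MIX by differences of -1.19, -1.38 and -1.27 (adjusted p 0.00314, 0.000743 and 0.00235), and Tgfb2 by -1.05, -1.04 and -1.12 (adjusted p 0.0220, 0.0150 and 0.00946). These comparisons passed in 3.86%, 8.08% and 9.07% of all genes and used the same 5 DEP rats. In nulliparous rats Tgfb2 was lower with DEP than with MPB (-0.76, adjusted p = 0.105), and Tgfb3 was lower than with MPB (-0.72, adjusted p = 0.0794) and TCS (-0.79, adjusted p = 0.0693). The remaining nulliparous differences did not pass, -0.53 for Tgfb2 against both TCS and MIX and -0.68 for Tgfb3 against MIX (adjusted p = 0.251). Of all genes, 3.43%, 2.12% and 0.622% passed in the nulliparous comparisons with MPB, TCS and MIX, in that order.

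The MIX rats, which received DEP within the mixture, had Tgfb2 and Tgfb3 means near those of the controls. The Tgfb3 mean was 11.3 in parous and 11.3 in nulliparous MIX rats, against 11.2 and 11.1 with oil. In the order of the 10 group means, DEP parous and DEP nulliparous were lowest for both genes, and of the 9 steps between neighbouring groups 2 for Tgfb2 and 1 for Tgfb3 exceeded the larger of the 2 SDs. For the other 7 members no step did.

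MPB, TCS and MIX changed no member in the limma fit. Of all genes 0.00550% passed for MPB in parous rats and 0% in each of the other 5 of these 6 comparisons. The smallest adjusted p of a member was 0.881. The gene Id3, an inhibitor of basic helix-loop-helix factors and a target of the superfamily, was lower with TCS in parous rats by a difference of -0.48 (95% confidence interval -0.83 to -0.14), with 9.01 to 9.53 in the TCS rats and 9.53 to 9.85 in the controls. Its unadjusted p was 0.00697 and its adjusted p was 0.997. Id3 was also lower with MIX in parous rats, by -0.35 (unadjusted p = 0.0450, adjusted p = 0.971), and no other member reached an unadjusted p under 0.05 in these comparisons. For Tgfb3 the 95% confidence intervals of the 6 differences together ran from -0.44 to 0.73, and for Tgfb2 from -0.68 to 0.73. The 4 chemicals were compared with the same control rats.

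**Figure D2:**
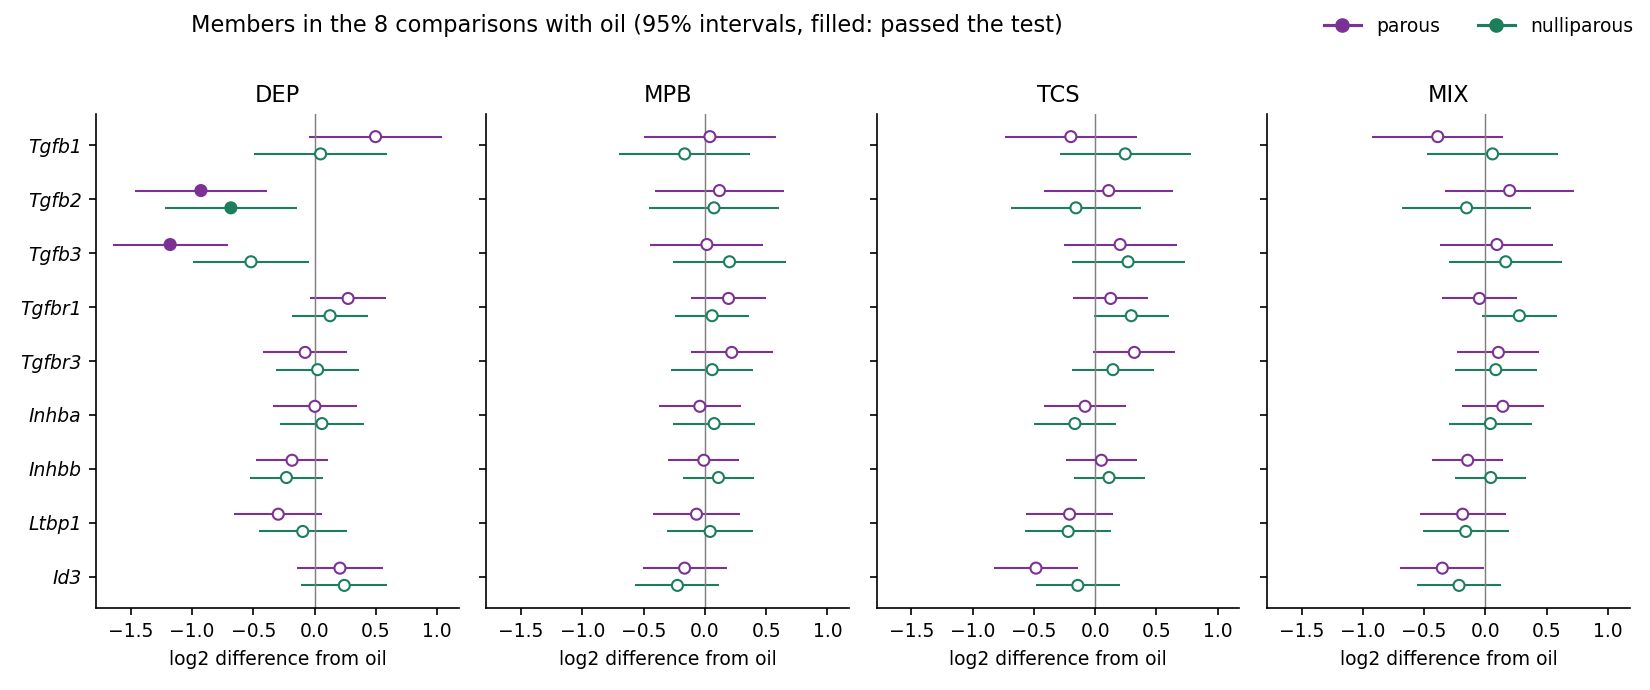
Log2 difference from oil (horizontal axis) of the 9 measured members for each chemical in parous and nulliparous rats, with 95% confidence intervals and filled points where the test passed. Filled points are Tgfb2 and Tgfb3 in DEP parous rats and Tgfb2 in DEP nulliparous rats.

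The third ligand, Tgfb1, the main isoform of immune cells, had the opposite sign with DEP. Its parous difference was 0.50 (95% confidence interval -0.05 to 1.04, adjusted p = 0.304) and did not pass. The DEP parous rats ranged from 8.82 to 10.3 and the controls from 8.66 to 9.87. Against the other chemicals in parous rats Tgfb1 was higher with DEP than with TCS (0.70, adjusted p = 0.102) and MIX (0.89, adjusted p = 0.0321), which both passed, and by 0.46 than with MPB, which did not. Id3 was also higher with DEP than with TCS in parous rats (0.69, adjusted p = 0.0132). Among the receptors, the type I kinase Tgfbr1 differed by 0.27 (95% confidence interval -0.04 to 0.58) and the co-receptor betaglycan, Tgfbr3, by -0.08 (-0.42 to 0.26) with DEP in parous rats. The inhibin subunits Inhba and Inhbb, whose homodimers are activins, differed by 0.0024 (-0.34 to 0.34) and -0.18 (-0.48 to 0.11).

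The falls of Tgfb2 and Tgfb3 went with lower markers of luminal epithelium, the layer that lines ducts and alveoli. All 12 luminal markers, including Epcam, Krt8, Cdh1 and Elf5, fell and passed the test in DEP parous rats (median difference -1.17). In DEP nulliparous rats 7 of 12 fell and passed (median -0.69). Of all genes 5.26% passed in parous and 1.84% in nulliparous rats. The kit-adjusted luminal score, the mean log2 signal of these 12 markers, was 8.57 to 9.76 in DEP parous rats against 9.89 to 10.4 in their controls. In nulliparous rats it was 9.08 to 9.73 against 9.98 to 10.4, so the score did not overlap in either. Epcam, Krt18, Krt19, Cldn3, Esrp1, Foxa1 and Prlr belong to the DEP gene signature that the study chose on these same rats. Their fall, and that of a score that holds them, is therefore not independent evidence. The median difference of the 7 T and NK cell markers was 1.29 and 1.02, with 1 and 0 of 7 passing, and that of the 6 B and plasma cell markers 1.21 and 1.33, with 0 of 6 passing in both. Over the 7 T and NK cell markers, the kit-adjusted score was 7.82 in DEP_par_38 and 10.84 to 11.29 in the other DEP parous rats. The parous controls ranged from 7.43 to 10.82. In nulliparous rats the T and NK cell score was 7.81 to 10.5 with DEP and 7.80 to 10.1 with oil. The 7 fibroblast markers had medians of -0.40 and -0.29, with 1 of 7 lower and passing in each. Of 6 macrophage markers, 2 were lower and 1 higher with DEP in parous rats (median -0.38) and 3 were lower in nulliparous rats (median -0.55).

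With the luminal score in the model, the DEP parous difference became -0.20 for Tgfb3 and 0.36 for Tgfb2, and no member passed. The nulliparous differences became 0.046 for Tgfb2 and 0.035 for Tgfb3. Because the luminal score did not overlap between DEP and oil rats, these fits cannot separate the score from DEP, and the cause was not tested. With the fibroblast score instead, Tgfb3 and Tgfb2 both still passed in parous rats (-1.04 and -0.73). Within the Zymo kit alone the parous differences were -0.92 for Tgfb3 and -0.82 for Tgfb2, and neither passed (adjusted p = 0.620 and 0.648). Within the Promega kit alone they were -1.39 and -1.20 and both passed, but this rests on 1 DEP rat, whose spread was assumed to be that of the other groups.

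The same pairs of genes and marker lists varied together between rats of the same group. After group and kit were removed, Tgfb2 correlated with the luminal score over 50 rats at r = 0.87 (Spearman's rho = 0.80). Both permutation p values were 1e-05, the smallest that 100000 resamples can give, and the p of r adjusted over 81 relations between members and marker lists was 6.75e-05. Without the 2 rats farthest from the median of Tgfb2 r was 0.83, and it was 0.87 within Promega and 0.86 within Zymo rats. Tgfb3 and the luminal score gave r = 0.76 (rho = 0.64, permutation p = 1e-05 for both, r = 0.68 without 2 rats). Tgfb2 and Tgfb3 correlated with each other at r = 0.61 (rho = 0.50, permutation p = 2e-05 and 0.00024, adjusted p over 36 pairs of members 0.00018, r = 0.54 without 2 rats), with 0.89 in Promega and 0.62 in Zymo rats.

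The genes whose residuals were most like those of Tgfb2 were Galnt3 (r = 0.92), Tom1l1 (0.90) and Marveld2 (0.89), which encodes a tight junction protein. Those most like Tgfb3 were Ano1 (0.92), Btn1a1 (0.89), which encodes the butyrophilin of milk fat globules, and Fads1 (0.87), a fatty acid desaturase.

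Tgfb1 followed the immune markers. The kit-adjusted T and NK cell score fell into 28 rats between 7.30 and 8.45 and 22 rats between 9.03 and 11.3, so r is given for the rats on each side of this gap. The residuals came from the fit of all 50 rats and were not refitted on each side. They still carry how many rats of each side a group held, so these values are not relations within a side alone. Tgfb1 and the score correlated at r = 0.81 among the 28 rats (rho = 0.75, permutation p = 1e-05 for both) and at r = 0.85 among the 22 (rho = 0.85, permutation p = 1e-05 and 2e-05). The genes most like Tgfb1 over all 50 rats were Limd2 (r = 0.94), Coro1a (0.94), an actin-binding protein of leukocytes, and Lcp2 (0.94), an adaptor of T cell receptor signalling. Tgfb1 and Tgfbr1 correlated at r = 0.81 above the gap (permutation p = 2e-05) and at r = 0.18 below it (permutation p = 0.364). The difference between these values was not tested.

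The other members went with further compartments. Tgfbr3 correlated with the endothelial score at r = 0.81 (rho = 0.77) and with the basal epithelial score at 0.73 (rho = 0.69), each with a permutation p of 1e-05, the latter from 3 measured markers. Tns1 (r = 0.89), Sptbn1 (0.88) and Lrp6 (0.85) were most like it. Inhbb correlated with the adipocyte score at r = 0.62 (rho = 0.57, permutation p = 1e-05 and 3e-05), and Rnf24 (0.86), Slc45a3 (0.79) and Cdh16 (0.79) were most like it. Tgfb2 and Tgfbr1 were the most strongly opposed pair of members (r = -0.68, rho = -0.69, permutation p = 1e-05), at -0.59 below the gap and -0.66 above it. Nub1 (r = 0.84), Ldb1 (0.83) and Ncf1 (0.83), a subunit of the phagocyte oxidase, were most like Tgfbr1. The residuals of Inhba and Id3 were less closely followed by any gene, with Lrrtm3 (r = 0.67), Lrrcc1 (0.61) and Uqcc2 (0.61) most like Inhba, and Fam98c (0.67), Snx32 (0.66) and Mutyh (0.64) most like Id3. Of 36 pairs of members 16 had an adjusted p under 0.05, and of 81 pairs of a member and a marker list 49 did.

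**Figure D3:**
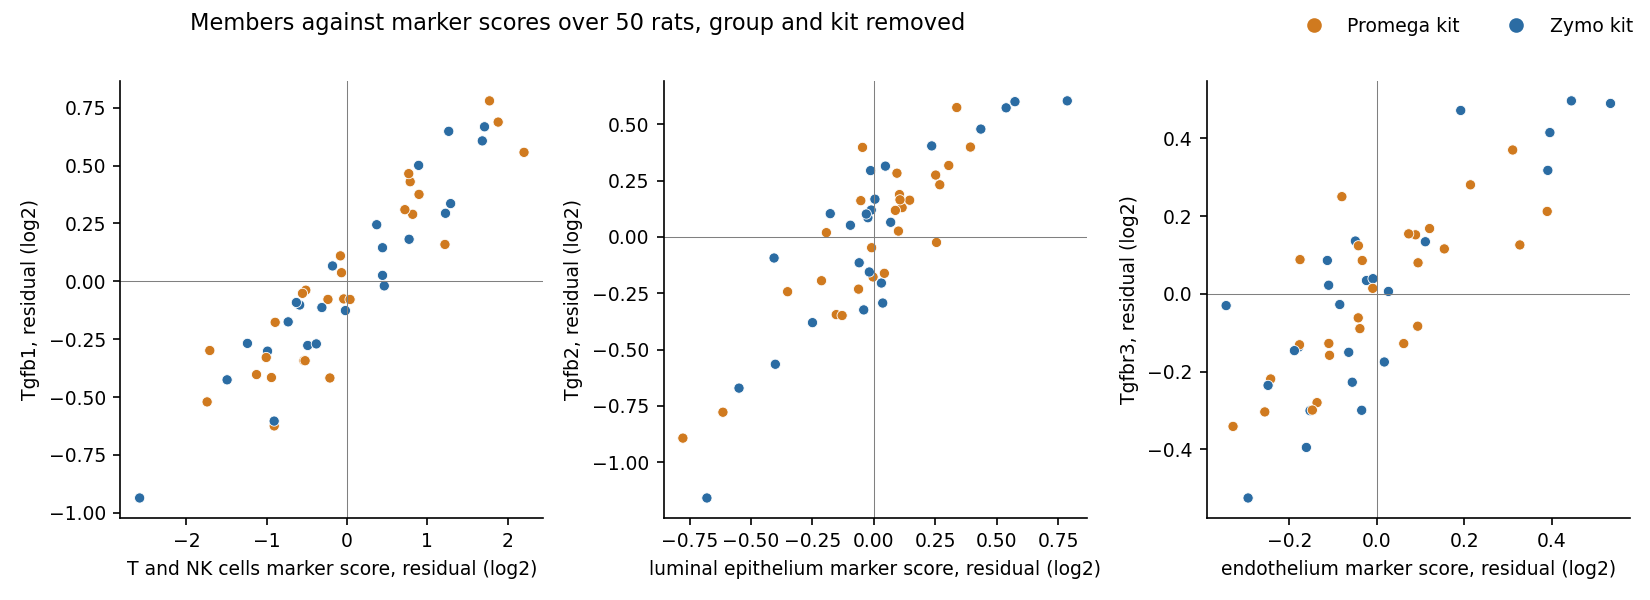
Residual log2 signal, after group and kit, of Tgfb1 against the T and NK cell score, of Tgfb2 against the luminal score and of Tgfbr3 against the endothelial score, with 1 point per rat coloured by kit (n = 50). Each panel rises from lower left to upper right in both kits, with r = 0.87 for Tgfb2 and 0.81 for Tgfbr3.

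Ltbp1 was lower in parous rats. This gene encodes a protein that holds latent TGF-beta and anchors it to the matrix. It was the 1 of 9 members that passed at an adjusted p under 0.05 in the comparison of 25 parous with 25 nulliparous rats, where 6.38% of all genes passed (170 higher and 989 lower). The kit-adjusted Ltbp1 signal was 7.90 at the lowest, 8.51 at the median and 9.31 at the highest in parous rats, and 8.52, 8.98 and 9.31 in nulliparous rats. Thus 24 of 25 parous rats were below the nulliparous median and 0 of 25 nulliparous rats were below the parous median, although the ranges overlapped.

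The difference was -0.40 (SE 0.078, 95% confidence interval -0.56 to -0.24), a 1.32-fold fall with an adjusted p of 0.000836. It was -0.34 in OIL, -0.54 in DEP, -0.45 in MPB, -0.33 in TCS and -0.36 in MIX rats, with overlapping ranges in each. Leaving out any of the 50 rats in turn gave -0.44 to -0.37. Within kits the differences were -0.34 for Zymo (adjusted p = 0.412) and -0.40 for Promega (adjusted p = 0.0630), and neither passed.

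Among the controls alone no member passed, and 0.00550% of all genes did. The OIL parous signals of Ltbp1 were 8.81, 8.94 and 9.03 with Promega and 8.21 and 8.64 with Zymo, against 9.41, 9.46 and 8.85 and 8.75 and 8.84 in nulliparous rats. The difference of -0.34 had a 95% confidence interval from -0.69 to 0.01 (adjusted p = 0.986), and no member had an unadjusted p under 0.05 there by limma. Tgfbr1 was 0.19 higher in parous rats over all treatments (95% confidence interval 0.05 to 0.33, adjusted p = 0.0853) and did not pass. The parity difference of the remaining members lay between -0.22 for Tgfb2 and 0.07 for Tgfb1.

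**Figure D4:**
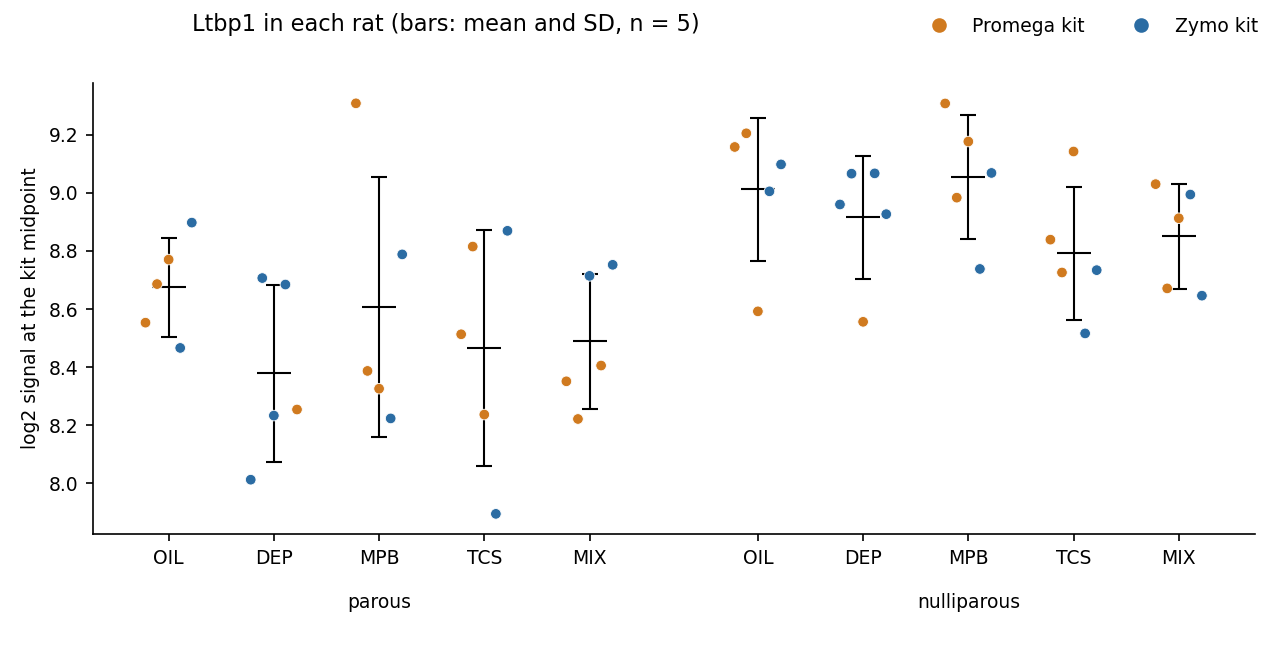
Kit-adjusted log2 signal of Ltbp1 in each rat by treatment and parity, with points coloured by kit and bars for the mean and SD of 5 rats. The parous mean is below the nulliparous mean in all 5 treatments, with differences of -0.54 to -0.33, and the ranges overlap.

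Upstream of Ltbp1 lies a match to the palindromic cAMP response element, shown because Ltbp1 was the member that moved with parity. The stretch below is from RefSeq (GRCr8, chr6:26177362-26177461, minus strand), runs from base -160 to base -61 of the start used in the RefSeq promoter table (position 26177301), and carries the motif in capitals, beginning 108 bases before that start. The outermost annotated start of Ltbp1 (position 26177346) lies 45 bases further upstream, 63 bases from the motif.
Ltbp1: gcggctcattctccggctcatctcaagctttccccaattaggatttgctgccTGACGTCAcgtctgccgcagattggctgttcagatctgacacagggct
The motif TGACGTCA reads the same on both strands. It was found in 1 of the 10 windows of the members and in 612 of 33469 promoter windows (1.83%), each from 250 bases before to 50 after a start. A match is a description of these letters only.

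The wider pathway was then counted by role. The 60 other genes came from lists of storage and activation, ligands, receptors, Smads, inhibitors and targets. These lists hold matrix genes outside the superfamily and were chosen with earlier results of these data known. Of the 60 genes, 18 were lower in parous rats and 0 higher (median -0.09). Of all genes 6.38% passed, with a median of -0.0034. Storage and activation genes gave 4 of 10 lower, with Fbn1, the fibrillin that carries latent complexes, at -0.78 (1.72-fold), Ltbp2 at -0.53, Ltbp3 at -0.27 and the proteoglycan Bgn at -0.22. Targets gave 4 of 12, the collagen Col1a1 (-0.69), the matricellular Postn (-0.64), fibronectin Fn1 (-0.53) and Id4 (-0.33).

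Other ligands gave 3 of 11, Gdf10 (-0.41), Bmp4 (-0.32) and Bmp7 (-0.28), and other receptors 3 of 9, the bone morphogenetic protein receptors Bmpr1b (-0.41) and Bmpr1a (-0.27) and Acvr1 (-0.22). Inhibitors gave 3 of 12, the activin-binding Fst (-0.27) and Fstl3 (-0.23) and the inhibitory Smad6 (-0.20). Of 6 Smad transducers only Smad5 was lower (-0.18).

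The fibroblast markers moved with these genes. Of 7 fibroblast markers 6 were lower in parous rats (median -0.49), as were 5 of 7 adipocyte markers (median -0.33) and 1 of 12 luminal markers (median -0.21). Ltbp1 correlated with the fibroblast score over the 50 rats at r = 0.59 (rho = 0.57, permutation p = 1e-05 and 2e-05, r = 0.57 without 2 rats), and Fndc1 (r = 0.87), Flrt2 (0.85) and Tnxa-ps1 (0.85) were most like it. With the fibroblast score in the model the parity difference of Ltbp1 was -0.19 (adjusted p = 0.343) and did not pass.

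**Figure D5:**
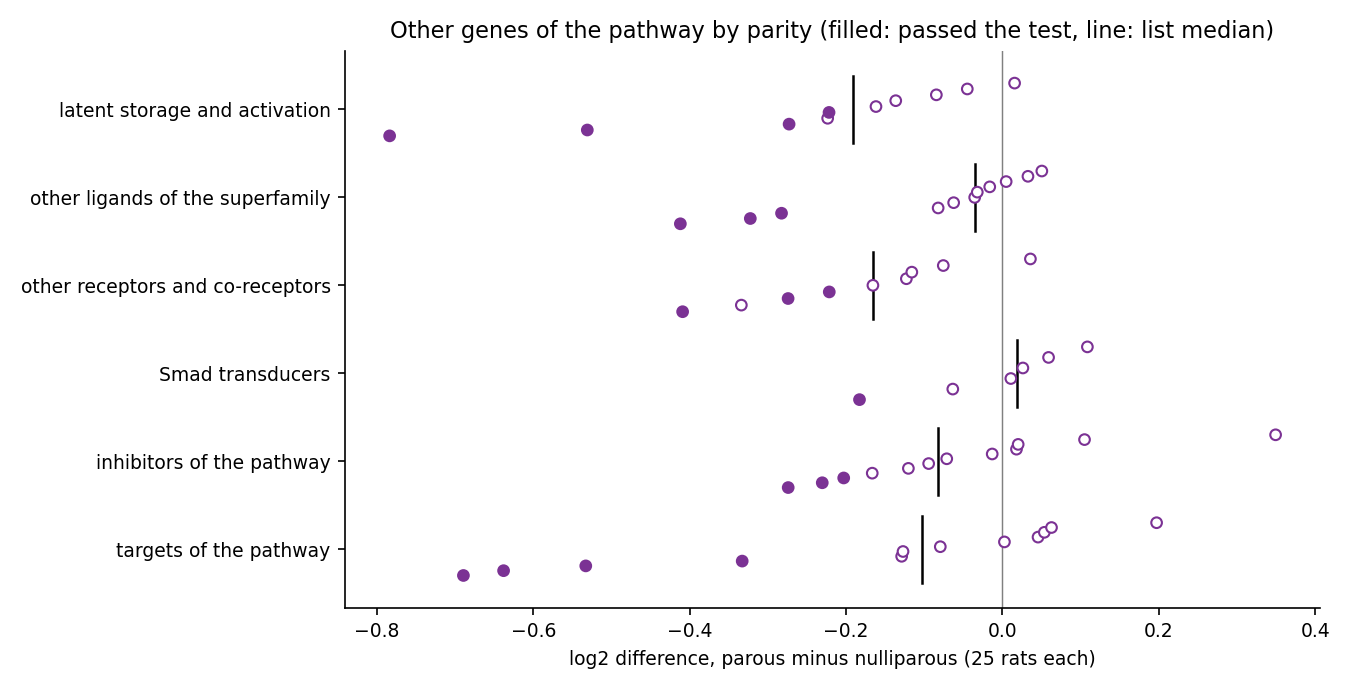
Log2 difference of 60 other pathway genes between 25 parous and 25 nulliparous rats (horizontal axis), grouped in 6 lists, with filled points where the adjusted p was under 0.05 and a line at each list's median. All 18 filled points are below 0, led by Fbn1 at -0.78.

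In the DEP comparisons the share of the 60 genes that passed was near that of all genes, 3 of 60 in parous rats against 5.26% and 1 of 60 in nulliparous rats against 1.84%. In parous rats 1 was higher, the bone morphogenetic protein antagonist Grem1 (1.24, SE 0.54, adjusted p = 0.185), and 2 were lower, Bmpr1b (-0.97, SE 0.23, adjusted p = 0.00846) and Postn (-0.93, SE 0.27, adjusted p = 0.0332). In nulliparous rats Bmpr1b alone passed (-0.65, SE 0.23, adjusted p = 0.179). Kit-adjusted Bmpr1b ranged from 6.32 to 7.39 in DEP parous rats and from 7.37 to 8.25 in their controls. In nulliparous rats the ranges were 6.96 to 7.57 with DEP and 7.69 to 8.46 with oil. Grem1 ranged from 5.74 to 8.75 with DEP and from 5.49 to 8.06 with oil in parous rats, a wide overlap. No gene of the 6 lists passed with MPB, TCS or MIX in the limma fit, with 0 to 4 of 60 at an unadjusted p under 0.05.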

How the data were processed

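Mammary RNA of 50 rats was hybridised to GeneChip Rat Gene 2.0 ST arrays, 1 array per rat. The deposited values are log2 signals per transcript cluster, made by the authors with RMA in Affymetrix Expression Console (version not given in the sources used here). The methods name ComBat in R 3.0.2 as the correction for the RNA kit. A kit difference was nevertheless present in the deposited log2 signals. Genes were taken from the probe annotation with a single symbol, the probeset of highest mean per gene. Models were fitted with limma 3.58.1 in R 4.3.3 over all 18166 genes, with group and kit as terms, moderated tests and Benjamini-Hochberg adjustment, without a filter. Chemicals and interactions passed at an adjusted p under 0.25 with at least 1.5-fold, the cut-offs of the study, and parity and kit at an adjusted p under 0.05. The study applied these cut-offs to repeated draws of rats over a filtered set of genes, and those draws were not run here. Scores are the mean log2 signals of a marker list. Correlations used residuals after group and kit, with two-sided permutation tests of 100000 resamples. Every member is named, with every rat's value where the member passed, along with up to 4 passing genes per pathway list and the 3 most similar genes. The comparisons of DEP with the other chemicals, the fibroblast score and the split at the gap of the T and NK cell score were added after seeing the data. Members and lists were chosen with earlier results of these data known. The script was tested on simulated data. The number of arrays limits the precision. Replicates are separate rats. Alternatives covered the kit, filters, normalisation, array weights, marker scores, call rules and each rat left out.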

Additional observations from a re-analysis of the deposited data

Results flagged for a closer look

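Single rats stood apart from the other 4 of their group in 8 of 90 sets of a member and a group, by Dixon's criterion, and chance flags about 1 in 20. All values here are kit-adjusted log2 signals. DEP_par_38 had the highest Tgfb3 of its group, 11.06 against 9.56 to 9.98 in the others, and the highest Inhba, 7.17 against 6.47 to 6.67. The same rat had a luminal score of 9.76 and a T and NK cell score of 7.82, the top and the bottom of the DEP parous group.

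MIX_par_339 was low in 2 ligands, with Tgfb2 at 8.24 against 9.56 to 9.79 and Tgfb3 at 10.8 against 11.4 to 11.5, and its luminal score was 9.40, the lowest of the MIX parous group. TCS_null_230 was high in Tgfb3, 11.76 against 11.2 to 11.4, and in Tgfbr1, 9.19 against 8.52 to 8.69, with a T and NK cell score of 10.5, the highest of its group.

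OIL_null_429 had Tgfb1 at 9.92 against 8.80 to 9.09, and its T and NK cell score of 10.1 was the highest among the nulliparous controls. DEP_null_29 had Ltbp1 at 8.56 against 8.93 to 9.07, with a fibroblast score of 10.5, the lowest of its group. It was also the only Promega rat of that group, and Ltbp1 differed by kit (-0.51 for Zymo from Promega). The part of the marker scores and the kit in these values was not tested.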

How the results depend on the processing

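The count of 2 members in DEP parous rats became 0 with the Zymo kit alone, 5 with the Promega kit alone (1 DEP rat) and 0 with the luminal score, and was 2 to 3 with any 1 rat left out. The count of 1 in DEP nulliparous rats became 0 without the kit term, in either kit alone, with quantile normalisation repeated, with the luminal, lymphoid or fibroblast score and at an adjusted p under 0.05, and 2 with array weights. It was 0 to 1 with 1 rat left out, 0 without DEP_null_27, DEP_null_28, DEP_null_31, OIL_null_427, OIL_null_428, OIL_null_430 or OIL_null_431. The parity count of 1 became 0 without the kit term, in either kit alone, with the intensity and variance filter (which Ltbp1 did not pass), at the study's cut-offs and with the fibroblast score, and 2 with array weights. It was 1 to 2 with 1 rat left out, 2, adding Tgfbr1, without DEP_par_38, TCS_null_230, TCS_par_237 or OIL_null_429. With the luminal score the sign turned for Tgfb2 in DEP parous (0.36) and nulliparous rats (0.046), for Tgfb3 in nulliparous rats (0.035) and for the Tgfb2 difference by parity (0.31), which was also 0.0088 in the Zymo kit alone. The cause of these changes was not tested. With only the 10 rats compared, the DEP parous differences were -1.09 for Tgfb3 (adjusted p = 0.137) and -0.96 for Tgfb2 (adjusted p = 0.122). Over all recomputed counts of members, 421 stayed within 1.5 times the reported count and 30 did not. The 421 include reported counts of 0 that stayed at 0, so the total does not measure how stable the calls were. The alternative of every other probeset gave no value because each member had 1. No paired analysis was possible because no groups shared rat numbers.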
